A study of Mus musculus with 12 samples.

Results

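Mouse C2C12 myoblasts kept for 48 h in differentiation medium (Day2) were compared with the same cell line kept there for 24 h (Day1). The 6 arrays, 3 for each time, are all those that carry either title, out of 12 in the series. C2C12 is a myoblast line that divides in rich serum, stops dividing in a medium with 2% horse serum and then fuses into contractile myotubes. The study asked which genes are targets of the muscle microRNAs, and the pair of times gives the course of differentiation with neither agent. The other 6 arrays are of C2C12 cells given either a small RNA that mimics miR-206, cultured for 24 h, or an inhibitor of that microRNA, cultured for 48 h. Per the labels, Day2 cells were at the beginning of differentiation and Day1 cells were undifferentiated, and no group of cells in growth medium was analysed here, so Day1 is itself an early time in differentiation medium. All samples carry the same Lipofectamine 2000 transfection protocol, and the labels do not say whether Day2 and Day1 cells were given a control oligonucleotide. Total RNA was measured on Illumina bead arrays. Replicates are numbered, but nothing says they were separate cultures, so p-values measure no more than the differences among these arrays, and these may be technical.

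Myoblasts are held in the cycle by growth factors and by Id proteins, which tie up the partners of MyoD. When serum is withdrawn, MyoD and its relatives switch on Myogenin, CDK inhibitors close the cell cycle, and genes for contraction, calcium handling and fusion follow. The transcript of a gene is read here by one probe, and a level is the log2 of its background-corrected, quantile-normalized intensity. Levels are compared between groups for one probe, never between genes. A change is the log2 of Day2 over Day1, given with its standard error as change ± SE, with 3 arrays in each group throughout. Where all 3 arrays of one group left a probe at background, the change is given only as a bound, such as "at least 10-fold higher". Where only some arrays of a group were at background, the change is given in full, and its size then rests partly on the background level. In whole cultures, a change in the share of cells that have differentiated and a change in RNA per cell cannot be told apart.

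Median raw intensity lay between 49.5 and 63.2 on the 6 arrays, and 36.7% to 40.3% of the probes were above background. Most probes were thus at background, so the median says little about brightness. Mean raw intensity differed more before normalization, from 161 on Day2 replicate 1 to 466 on Day1 replicate 1. On a principal component analysis of these arrays, 93.1% of the variance lay along the axis that separates the 2 times. Each Day2 array correlated with the others of its group at a mean r of 0.990 to 0.993, and each Day1 array at 0.994 to 0.995. No 2 arrays shared more than 0.711% of their raw values, so each was counted as its own sample. Of 8 tested markers of early muscle differentiation, 8 rose, and all 8 tested myoblast markers were above background on every array of both times. Of markers of other lineages, those tested were 1 of 8 listed for endothelium, 2 of 7 for cartilage, 2 of 8 for nerve and Schwann cells, 3 of 8 each for macrophages and adipocytes, 4 of 8 each for fibroblasts, keratinocytes and osteoblasts, and 5 of 8 for smooth muscle. The smooth muscle markers, Acta2 among them, summed to a linear level of 30003 to 37838 on Day2 arrays and 18519 to 20820.1 on Day1 arrays, with 2 higher and 2 lower on Day2. Most of that sum came from Acta2, whose change of 0.95 was the largest rise of the list, and the list median was -0.09. Myh11, Cnn1 and Lmod1 of that list had no kept probe.

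The difference between the times reached most of the transcriptome. Of 10653 genes tested, 6542 passed (limma, Benjamini-Hochberg adjusted p under 0.05), which is 61.4%. Of these, 3224 (30.3%) were higher and 3318 (31.1%) were lower on Day2. Every count for a gene list below is to be read beside these shares. The numbers in the 2 directions were nearly equal, and the median over all genes was -0.02, but the sizes were not symmetrical. At least 2-fold changes numbered 1305 higher (12.3% of the genes tested) and 1044 lower (9.8%), a count that depends on the processing: with no background correction it was 953 and 720, and in the authors' deposited log2 values 730 and 537. At least 8-fold, 176 were higher and 68 lower; at least 32-fold, 63 were higher and 3 lower; and at least 256-fold, 7 were higher and 0 lower. Day2 and Day1 levels did not overlap for 7024 genes (65.9%). Of the genes that fell, 166 had no signal over background at 48 h, and of those that rose, 353 had none at 24 h. The plot of level against change shows both sides.

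**Figure D1:**
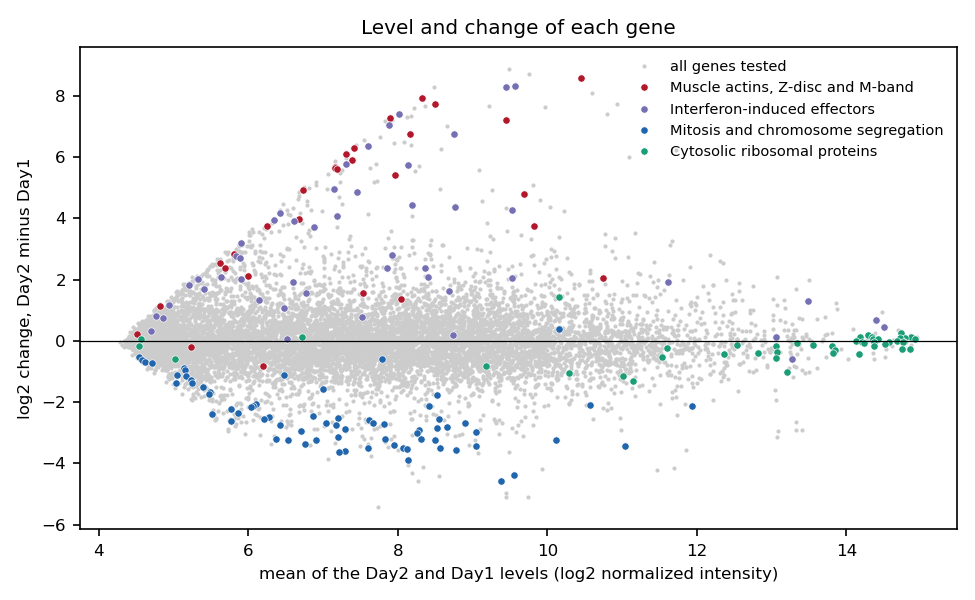
Each point is a gene, with the mean of its Day2 and Day1 levels (log2 normalized intensity) on the horizontal axis and its log2 change (Day2 minus Day1) on the vertical axis, for the 10653 genes tested. Genes of the Z-disc list and interferon-induced genes lie mostly above 0, mitotic genes below it, and cytosolic ribosomal proteins close to 0 at the bright end.

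The muscle transcription factors changed unequally. Myog, the factor that commits myoblasts to differentiate, had levels of 11.78, 11.27 and 11.22 on the Day2 arrays, against 4.27, 4.17 and 4.27 on the Day1 arrays. The groups were far apart and all Day1 values were at background, which makes Myog at least 107-fold higher (limma adjusted p = 5.33e-14). Csrp3, a LIM protein that acts as a cofactor of MyoD and also sits at the Z-disc, had levels of 12.54, 11.82 and 11.66 on the Day2 arrays, against 4.34, 4.55 and 4.36 on the Day1 arrays and was at least 159-fold higher (limma adjusted p = 3.58e-13). Tead4, which binds muscle promoters with MyoD, rose by a smaller amount (2.34 ± 0.14). Myod1, which sits at the top of this program, moved far less. Its levels were 10.06, 9.91 and 9.98 on the Day2 arrays, against 9.44, 9.23 and 9.46 on the Day1 arrays, and although the groups did not overlap the change was only 0.60 ± 0.09 (limma adjusted p = 7.1e-05). That call depends on the arrays used to estimate the spread, since a fit over all 4 groups of the study gave Myod1 an adjusted p of 0.102. Of the 16 tested genes of the MyoD and MEF2 list, 8 rose and 3 fell, beside 30.3% and 31.1% of all genes. The other 5 did not pass, and the list median was 0.16. Tcf3, which encodes the E-proteins that pair with MyoD, was one that fell (-1.05 ± 0.19). Myf5, Myf6, Mef2c, Mstn and Pax7 had no probe above background on enough arrays, and Mef2a was not analysed here.

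All 3 Id genes that were tested fell. Id3 had levels of 6.93, 7.05 and 7.0 on the Day2 arrays, against 9.35, 9.35 and 9.33 on the Day1 arrays, with no overlap and a change of -2.35 ± 0.10 (limma adjusted p = 1.04e-10). Id1 (-1.93 ± 0.12) and Id2 (-1.80 ± 0.12) fell by similar amounts. Of the other 14 tested inhibitors of myogenic transcription, 9 rose and 2 fell, beside 30.3% and 31.1% of all genes. The largest rise was that of Bhlhe40 (2.32 ± 0.10), a basic helix-loop-helix repressor, followed by the zinc-finger repressor Zeb1 (1.42 ± 0.09) and the Notch effector Heyl (at least 1.85-fold higher).

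**Figure D2:**
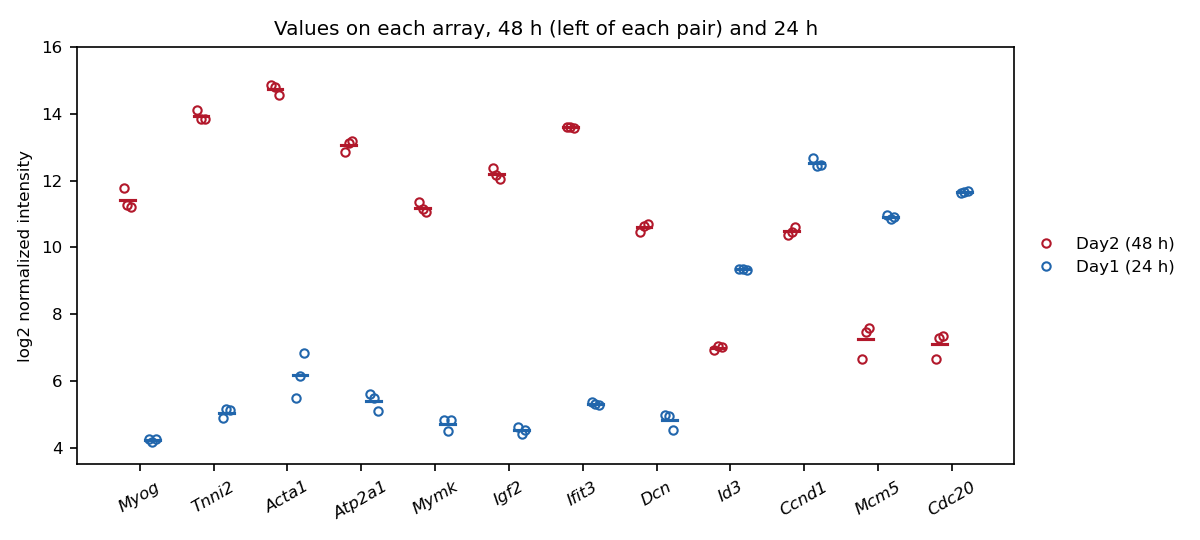
Level (log2 normalized intensity) of 12 genes on each of the 6 arrays, Day2 to the left of Day1 in each pair, with a line at the group mean. The first 8 genes are higher on all 3 Day2 arrays than on any Day1 array, and Id3, Ccnd1, Mcm5 and Cdc20 are lower on all 3.

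Genes of the contractile apparatus were among the largest rises. All 6 troponin genes tested rose, of both the fast type (Tnni2, Tnnc2, Tnnt3) and the slow type (Tnni1, Tnnc1, Tnnt1). Troponins are the calcium switch of the thin filament. Tnni1, the slow inhibitory subunit, had levels of 12.09, 11.76 and 11.68 on the Day2 arrays, against 4.41, 4.54 and 4.60 on the Day1 arrays and was at least 142-fold higher (limma adjusted p = 1.13e-14). Tnnc1, the slow and cardiac calcium-binding subunit, had levels of 14.91, 14.90 and 14.71 on the Day2 arrays, against 8.81, 8.51 and 8.53 on the Day1 arrays and changed by 6.23 ± 0.10 (limma adjusted p = 9.52e-15). Tnnt1, the slow tropomyosin-binding subunit, stood at 14.23, 14.19 and 13.86 on the Day2 arrays, against 7.96, 8.10 and 8.23 on the Day1 arrays, a change of 6.0 ± 0.11 (limma adjusted p = 2.41e-14). Day2 and Day1 did not overlap for any of them. The fast genes rose more (8.88 ± 0.10 for Tnni2, 8.73 ± 0.18 for Tnnc2), and transcripts of both types were above background on all 3 Day2 arrays.

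Of the muscle myosin list, all 7 tested genes rose. Myl1 (7.72 ± 0.13) and Mylpf (8.10 ± 0.15) are fast light chains. Myl4, the light chain of embryonic muscle and atrium, had levels of 14.60, 14.40 and 14.47 on the Day2 arrays, against 7.02, 7.10 and 7.17 on the Day1 arrays and changed by 7.39 ± 0.09 (limma adjusted p = 5.27e-16). The heavy chains are given as bounds: Myh8, the perinatal form, was at least 10.4-fold higher, and Myh1, an adult fast form, was at least 27.8-fold higher. Myh3, the embryonic form, was not analysed here. Mylk2, the kinase of the skeletal light chain, also rose (3.28 ± 0.11).

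In the list of muscle actins, Z-disc and M-band proteins, 26 of 29 tested genes rose, all 26 at least 2-fold, with a median of 4.80 (4.50 with one-sided values set at their bounds), against -0.02 over all genes. Actc1, the cardiac actin that embryonic muscle makes first, had levels of 11.87, 11.46 and 11.28 on the Day2 arrays, against 4.26, 4.26 and 4.27 on the Day1 arrays and was at least 115-fold higher (limma adjusted p = 3.71e-14). Klhl41, a kelch protein that stabilises thin filaments, had levels of 12.63, 12.27 and 12.21 on the Day2 arrays, against 4.39, 5.12 and 4.38 on the Day1 arrays, a change of 7.74 ± 0.18 (limma adjusted p = 2.67e-13). Only 1 Day1 array was above background for Klhl41, and other processing settings gave changes down to 5.71. Pdlim3, a Z-disc LIM protein, stood at 13.22, 12.86 and 13.07 on the Day2 arrays, against 5.64, 5.85 and 6.05 on the Day1 arrays and changed by 7.20 ± 0.12 (limma adjusted p = 1.13e-14). In each case Day2 lay above Day1 on all arrays. Among the giant and structural proteins, Ttn (6.75 ± 0.11) is the molecular spring of the sarcomere, Myom2 (at least 195-fold higher) and Myom3 (at least 58.4-fold higher) crosslink the M-band, and Unc45b (at least 51.1-fold higher) is the chaperone that folds myosin. Actn3, the fast-fibre alpha-actinin of the Z-disc, rose as well (4.80 ± 0.09). Pdlim5, another Z-disc protein, was the one member that fell (-0.82 ± 0.14), but its probes did not read alike, as described with the probes.

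Calcium handling followed the same direction, with 16 of 18 tested genes higher. Atp2a1, the fast-twitch calcium pump of the sarcoplasmic reticulum, rose by 7.66 ± 0.13. Hrc, a calcium-binding protein of the reticulum lumen, had levels of 11.90, 11.77 and 11.68 on the Day2 arrays, against 4.67, 4.46 and 4.28 on the Day1 arrays and changed by 7.31 ± 0.12 (limma adjusted p = 1.12e-14). Ryr1, the calcium release channel, had levels of 11.41, 11.35 and 11.21 on the Day2 arrays, against 4.81, 4.81 and 4.88 on the Day1 arrays, a change of 6.49 ± 0.10 (limma adjusted p = 8.36e-15). Casq2, the calcium buffer of cardiac and slow muscle, stood at 10.78, 10.95 and 10.74 on the Day2 arrays, against 4.31, 4.19 and 4.32 on the Day1 arrays and was at least 70.2-fold higher (limma adjusted p = 1.42e-14). The groups were separated for each of the 3 genes. Atp2a2, the pump of slow and cardiac muscle, also rose (4.23 ± 0.12). Cacna2d1, a subunit of the voltage-gated channel, was the one member that fell by the probe chosen for it (-1.40 ± 0.13), but its probes did not read alike.

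Genes of the postsynaptic membrane, where the nerve meets the muscle fibre, also rose: 10 of 12 tested were higher and 0 lower, 9 of them at least 2-fold. Chrng, the embryonic gamma subunit of the acetylcholine receptor, led (7.62 ± 0.11). Ncam1, an adhesion molecule of fusing myoblasts and synapses, had levels of 11.48, 11.45 and 11.39 on the Day2 arrays, against 7.85, 8.34 and 8.15 on the Day1 arrays and changed by 3.33 ± 0.11 (limma adjusted p = 1.74e-11). Chrnd, the delta subunit, had levels of 7.79, 7.52 and 7.28 on the Day2 arrays, against 4.71, 4.34 and 4.26 on the Day1 arrays, a change of 3.09 ± 0.17 (limma adjusted p = 2.29e-09). No Day1 array reached a Day2 value in either gene, and for Chrnd only 1 Day1 array was above background.

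Of 21 tested genes for fusion, adhesion and membrane repair, 13 rose and 4 fell, beside 30.3% and 31.1% of all genes. Mymk, the membrane protein that drives fusion, had levels of 11.35, 11.15 and 11.06 on the Day2 arrays, against 4.83, 4.49 and 4.82 on the Day1 arrays and changed by 6.47 ± 0.12 (limma adjusted p = 4.38e-14). Trim72, which patches torn membranes, stood at 11.65, 11.13 and 10.52 on the Day2 arrays, against 4.29, 4.35 and 4.66 on the Day1 arrays and was at least 84.9-fold higher (limma adjusted p = 1.1e-11). Dysf, a repair protein that works with it, rose by less (3.58 ± 0.14). Anxa1 (-0.72 ± 0.14) and Anxa2 (-0.59 ± 0.10), annexins found in many cell types, fell. In the complex that ties the cytoskeleton to the matrix, Dag1 (2.79 ± 0.09), which encodes dystroglycan, Dtna (2.52 ± 0.10), a dystrobrevin, and Sgca (2.41 ± 0.10), a sarcoglycan, rose, and 7 of 11 tested members were higher.

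Promoters of 4 genes that rose are shown because the E-box CANNTG, the site class of MyoD and Myogenin, could be sought there directly. Sequences are RefSeq promoters on GRCm38.p6, from 250 bases before to 50 after the start, 5′ to 3′ on the gene's strand. Capitals mark every CANNTG. Myog lies at chr1:134289754-134290053, Klhl41 at chr2:69669870-69670169, Acta1 at chr8:123894726-123895025 and Atp2a1 at chr7:126463024-126463323.
Myog: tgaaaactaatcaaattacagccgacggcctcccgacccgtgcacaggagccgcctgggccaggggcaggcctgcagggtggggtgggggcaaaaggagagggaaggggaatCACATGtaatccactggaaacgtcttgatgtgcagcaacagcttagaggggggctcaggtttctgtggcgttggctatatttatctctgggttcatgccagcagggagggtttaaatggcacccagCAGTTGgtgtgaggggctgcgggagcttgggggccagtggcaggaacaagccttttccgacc
Klhl41: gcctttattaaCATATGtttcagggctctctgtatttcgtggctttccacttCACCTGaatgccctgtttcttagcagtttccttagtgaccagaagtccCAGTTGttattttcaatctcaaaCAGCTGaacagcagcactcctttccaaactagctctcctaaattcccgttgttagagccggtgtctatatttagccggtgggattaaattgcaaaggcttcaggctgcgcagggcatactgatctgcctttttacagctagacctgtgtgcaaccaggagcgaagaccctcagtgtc
Acta1: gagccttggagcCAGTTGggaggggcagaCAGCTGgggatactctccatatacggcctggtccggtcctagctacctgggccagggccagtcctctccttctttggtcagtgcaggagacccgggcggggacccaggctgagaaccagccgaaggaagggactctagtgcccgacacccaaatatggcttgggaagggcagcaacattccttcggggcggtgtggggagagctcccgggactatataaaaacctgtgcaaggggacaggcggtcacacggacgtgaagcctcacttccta
Atp2a1: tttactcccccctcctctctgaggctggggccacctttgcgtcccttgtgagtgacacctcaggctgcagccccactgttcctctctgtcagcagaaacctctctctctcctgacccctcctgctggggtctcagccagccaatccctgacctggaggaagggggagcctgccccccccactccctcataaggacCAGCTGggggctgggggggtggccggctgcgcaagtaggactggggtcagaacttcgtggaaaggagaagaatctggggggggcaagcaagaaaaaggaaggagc
The form CAGCTG is in the windows of Klhl41, Acta1 and Atp2a1, and the Myog window holds CACATG and CAGTTG but no CAGCTG. Among promoters of genes at least 4-fold higher, 30.4% (119 of 392 promoters, from 296 matched genes of 421) held CAGCTG, against 12.1% of those at least 4-fold lower, 15.7% over all genes tested and 16.3% of all promoters in the table. The broader CANNTG was in 77.0%, 58.3%, 64.0% and 72.3% of the same sets. A match is a description of the letters and does not show binding.

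Energy genes changed by isoform. The muscle forms rose: Ckm, muscle creatine kinase (at least 42.7-fold higher), Pgam2, muscle phosphoglycerate mutase (4.57 ± 0.15), and Pfkm, muscle phosphofructokinase (3.11 ± 0.09). Pgam2 had levels of 9.27, 9.0 and 8.96 on the Day2 arrays, against 4.48, 4.29 and 4.73 on the Day1 arrays. Pgam1, the general mutase for the same step of glycolysis, had levels of 8.42, 8.25 and 8.25 on the Day2 arrays, against 9.41, 9.55 and 9.46 on the Day1 arrays and changed by -1.17 ± 0.09 (limma adjusted p = 1.14e-07). The 2 mutases therefore went in opposite directions, each with no overlap between the times. Pkm, pyruvate kinase, fell slightly (-0.53 ± 0.10), and so did Pdk4, a kinase that inhibits pyruvate dehydrogenase (-0.88 ± 0.12). The brain-type creatine kinase Ckb rose as well (2.57 ± 0.08). Over the whole list, 21 of 35 tested genes rose and 4 fell.

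Cytochrome oxidase, the last complex of the respiratory chain, showed the same kind of exchange. Cox8b, the muscle form of subunit 8, was at least 115-fold higher, and 2 further muscle forms also rose, Cox6a2 (3.37 ± 0.10) and Cox7a1 (3.07 ± 0.10). Their general counterparts fell slightly, Cox6a1 with a change of -0.36 ± 0.08 and Cox7a2 with -0.58 ± 0.11. Mb, the oxygen carrier myoglobin, was at least 41.2-fold higher, and Hspb3, a small heat shock protein of muscle, was at least 11.5-fold higher. The general subunits of the chain hardly moved: of 46 tested, 17 rose and 7 fell, none of them by 2-fold, with a median of 0.14. Of all genes, 30.3% rose and 31.1% fell. The largest rise there was that of Ndufa6 (0.93 ± 0.08), a complex I subunit, and the largest fall that of Cycs (-0.67 ± 0.09), cytochrome c.

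Both ligands of the insulin-like growth factor system rose. Igf2, the growth factor that differentiating myoblasts secrete, had levels of 12.38, 12.18 and 12.05 on the Day2 arrays, against 4.63, 4.42 and 4.52 on the Day1 arrays and was at least 183-fold higher (limma adjusted p = 3.88e-15). Insr, which encodes the insulin receptor, had levels of 8.96, 8.82 and 8.89 on the Day2 arrays, against 6.53, 6.26 and 6.19 on the Day1 arrays, a change of 2.57 ± 0.12 (limma adjusted p = 4.02e-10). Both stood above Day1 on every Day2 array. The second ligand, Igf1, rose as well (2.40 ± 0.15), whereas Igfbp2, a binding protein of both ligands, had levels of 9.16, 8.72 and 8.78 on the Day2 arrays, against 11.17, 10.96 and 10.94 on the Day1 arrays and changed by -2.14 ± 0.12 (limma adjusted p = 2.31e-09). Of 20 tested genes of the system, 14 rose and 2 fell. Imprinted genes, which are read from one parental copy and many of which act on growth, gave 6 higher and 3 lower of 12, with Cdkn1c (2.19 ± 0.19) among the higher. Of all genes, 30.3% rose and 31.1% fell. Fgf21, a hormone that stressed muscle releases, had levels of 11.51, 11.71 and 11.92 on the Day2 arrays, against 5.28, 5.33 and 5.70 on the Day1 arrays, a change of 6.28 ± 0.13 (limma adjusted p = 1.08e-13). That rise was the largest both among fibroblast growth factor genes and among genes of the ATF4 stress response. Of the other 25 tested genes of the ATF4 list, 7 rose and 11 fell, beside 30.3% and 31.1% of all genes, with Phgdh (-1.74 ± 0.11), the first enzyme of serine synthesis, and Shmt2 (-1.41 ± 0.09), the mitochondrial step of the folate cycle, lowest.

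Cell division genes fell almost without exception. In the list for replication licensing and the fork, 44 of 45 tested genes fell, all 44 at least 2-fold, beside 31.1% and 9.8% of all genes, and the median was -2.20. Mcm5, a subunit of the replicative helicase, had levels of 6.66, 7.47 and 7.59 on the Day2 arrays, against 10.97, 10.84 and 10.89 on the Day1 arrays and changed by -3.66 ± 0.18 (limma adjusted p = 8.2e-10). Asf1b, a chaperone that delivers new histones to the fork, had levels of 5.70, 6.39 and 6.24 on the Day2 arrays, against 10.12, 10.20 and 10.15 on the Day1 arrays, a change of -4.05 ± 0.15 (limma adjusted p = 3.93e-11). Uhrf1, which guides DNA methylation onto new strands, stood at 7.02, 7.98 and 8.07 on the Day2 arrays, against 11.38, 11.24 and 11.27 on the Day1 arrays and changed by -3.61 ± 0.20 (limma adjusted p = 2.86e-09). Day2 was below Day1 on all arrays in each. Pcna, the sliding clamp, lay close to the list's median (-2.22 ± 0.20). Orc2, a subunit of the origin complex, was the one member that did not pass (-0.23 ± 0.15, adjusted p = 0.212).

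Enzymes that make nucleotides fell with replication: of 22 tested, 20 fell, 15 of them at least 2-fold, and 1 rose. Tk1, thymidine kinase, had levels of 7.46, 8.03 and 8.04 on the Day2 arrays, against 12.10, 12.03 and 11.90 on the Day1 arrays and changed by -4.17 ± 0.14 (limma adjusted p = 1.17e-11). Tyms, thymidylate synthase, had levels of 7.72, 8.29 and 8.31 on the Day2 arrays, against 11.07, 10.92 and 10.89 on the Day1 arrays, a change of -2.85 ± 0.14 (limma adjusted p = 5.59e-10). The 2 times did not overlap for these enzymes. Rrm1, the large subunit of ribonucleotide reductase, fell by a similar amount (-2.59 ± 0.11). Impdh1, which makes guanine nucleotides, was the one that rose (1.02 ± 0.13). DNA repair genes also fell in 23 of 25 cases, with the checkpoint adaptor Clspn (-3.36 ± 0.11) and the recombination helper Rad54l (-3.32 ± 0.18) lowest.

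Among genes of mitosis and chromosome segregation, 69 of 70 tested fell, 62 at least 2-fold, with a median of -2.65. Cdc20, which activates the ubiquitin ligase that starts anaphase, had levels of 6.66, 7.29 and 7.35 on the Day2 arrays, against 11.61, 11.67 and 11.70 on the Day1 arrays and changed by -4.56 ± 0.15 (limma adjusted p = 1.07e-11). Birc5, or survivin (-4.38 ± 0.16), and Cdca8, or borealin (-3.87 ± 0.13), subunits of the chromosomal passenger complex, followed. Top2a, which untangles sister chromatids, fell as well (-2.79 ± 0.14). Kif23, a kinesin of the spindle midzone, was the one member that did not pass (0.39 ± 0.16, adjusted p = 0.0547), with a call that depends on the setting. On Day2 the levels were low but not gone: Cdc20 stayed above background on all 3 Day2 arrays, whereas other mitotic genes, Nuf2 of the outer kinetochore among them, were no longer above it on any (at least 4.06-fold lower).

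Regulators of the G1 phase were higher in 13 of 37 cases and lower in 13, close to the 30.3% and 31.1% of all genes. At least 2-fold, 9 were higher and 11 lower, beside 12.3% and 9.8% of all genes. Changes of that size were thus more frequent in both directions. Ccnd1, the cyclin that serum induces, had levels of 10.37, 10.46 and 10.60 on the Day2 arrays, against 12.68, 12.44 and 12.47 on the Day1 arrays, a change of -2.05 ± 0.09 (limma adjusted p = 3.5e-10). Ccnd3, the D-type cyclin kept by myotubes, had levels of 12.55, 11.99 and 11.90 on the Day2 arrays, against 10.10, 10.30 and 10.36 on the Day1 arrays and changed by 1.89 ± 0.14 (limma adjusted p = 5.25e-08). So 2 cyclins of one family moved in opposite directions, each without overlap. Cdk4, their kinase partner (-2.10 ± 0.08), and Ccne1, which opens S phase (-3.09 ± 0.16), fell. Among brakes of the cycle, Cdkn1a (2.61 ± 0.08) and Cdkn1c (2.19 ± 0.19) encode CDK inhibitors, Rb1 (2.12 ± 0.12) encodes the pocket protein that holds E2F, and Gadd45a (3.27 ± 0.09) encodes a growth arrest protein, and all 4 rose. Myc, a driver of growth, fell (-1.05 ± 0.16).

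Cdc20, at chr4:118437294-118437593 on the minus strand, and Mcm5, at chr8:75109259-75109558 on the plus strand, show the motifs sought in promoters of genes that fell. The window of Birc5, which fell about as far as Cdc20, held none of them. Those motifs were the CCAAT box ATTGG, the CHR TTTGAA of late cell cycle genes, and the E2F forms TTCCCGCC, TTTCCCGC and GCGCGAAA, all on both strands. Capitals mark the CCAAT boxes and CHR in Cdc20, and the E2F form and CCAAT boxes in Mcm5.
Cdc20: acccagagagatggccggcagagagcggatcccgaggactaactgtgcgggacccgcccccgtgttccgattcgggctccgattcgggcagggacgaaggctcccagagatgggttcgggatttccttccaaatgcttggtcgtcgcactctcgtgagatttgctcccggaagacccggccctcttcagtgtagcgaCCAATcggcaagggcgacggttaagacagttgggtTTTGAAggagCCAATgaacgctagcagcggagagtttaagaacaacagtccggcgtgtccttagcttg
Mcm5: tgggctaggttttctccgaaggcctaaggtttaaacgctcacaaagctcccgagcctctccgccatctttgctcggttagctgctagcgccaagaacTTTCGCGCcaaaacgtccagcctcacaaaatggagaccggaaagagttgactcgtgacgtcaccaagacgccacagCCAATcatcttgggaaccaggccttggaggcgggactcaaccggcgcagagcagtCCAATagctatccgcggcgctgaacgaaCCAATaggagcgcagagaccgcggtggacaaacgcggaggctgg
The CHR was in 64.1% of promoters of the mitosis list and in 34.0% of those of genes at least 4-fold lower, against 12% over all genes tested. It was in 11.2% of promoters of genes at least 4-fold higher and in 17.9% of all promoters. The CCAAT box was in 68.8% of the mitosis promoters and 54.3% of the 4-fold lower set, against 37.6% over all genes tested. An E2F form was in 37.0% of promoters of the replication list and 15.8% of the 4-fold lower set, against 5.54% over all genes tested. A gene can have several starts, so promoters are counted, from 58 matched genes of 70 in the mitosis list, 36 of 45 in the replication list and 213 of 255 in the 4-fold lower set.

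**Figure D3:**
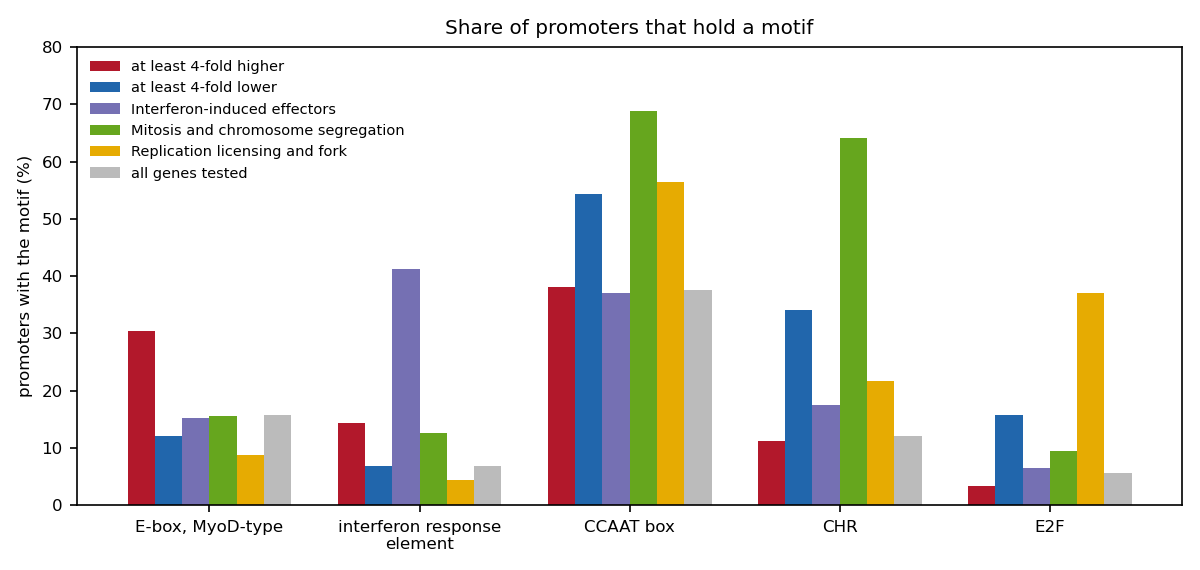
Percentage of RefSeq promoters that hold each motif on either strand, for genes at least 4-fold higher or lower on Day2, for all tested members of 3 gene lists, and for all genes tested. The CHR stands highest in the mitosis list (64.1%), the interferon element in the interferon list (41.3%) and the E2F forms in the replication list (37.0%).

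The histone genes listed as made in S phase did not fall together. The list is not complete, since H2ac21 and H2ac12, H2A genes that fell, stand outside it. Of 43 tested, 21 fell and 14 rose, beside 31.1% and 30.3% of all genes, and 12 and 10 of them did so at least 2-fold. H2ac11, an H2A gene, had levels of 5.92, 6.76 and 6.37 on the Day2 arrays, against 10.84, 10.73 and 10.67 on the Day1 arrays and changed by -4.40 ± 0.16 (limma adjusted p = 4e-11). H2ac15, another H2A gene, fell by a like amount (-4.15 ± 0.17). H1f2, a linker histone, had levels of 13.46, 13.03 and 13.13 on the Day2 arrays, against 10.30, 9.99 and 9.97 on the Day1 arrays, a change of 3.12 ± 0.12 (limma adjusted p = 5.61e-11). H2bc4, an H2B gene, also rose (2.14 ± 0.11). Higher and lower genes thus stood side by side in one family with no overlap of the times. Histone genes are near-identical copies, and probes may read more than one of them, which was not tested.

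The machinery of protein synthesis fell in part. Of 33 genes for making ribosomes, 29 fell and 0 rose, 13 by at least 2-fold. Nop56, a core protein of small nucleolar particles, had levels of 7.46, 8.17 and 8.11 on the Day2 arrays, against 9.90, 10.004 and 10.08 on the Day1 arrays, a change of -2.08 ± 0.16 (limma adjusted p = 5.03e-08). Nhp2 (-1.82 ± 0.09) belongs to particles that modify ribosomal RNA and Pes1 (-1.78 ± 0.21) processes it. For the ribosomal proteins themselves, 16 of 46 cytosolic genes fell, a share near the 31.1% of all genes, and 2 rose, with a median of -0.12. Rpl22 (1.43 ± 0.11) rose and Rpl13a (-1.32 ± 0.08) and Rpl30 (-1.14 ± 0.12), all of the large subunit, fell. The mitochondrial ribosome fell more evenly, in 34 of 51 genes, with a median of -0.40 and with Mrps6 (-1.78 ± 0.08) and Mrpl20 (-1.61 ± 0.12) lowest. Of 21 aminoacyl-tRNA synthetase genes, 10 fell and 2 rose, beside 31.1% and 30.3% of all genes.

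Of 19 tested splicing regulators, 8 rose and 9 fell, beside 30.3% and 31.1% of all genes. Srpk3, a muscle kinase of splicing factors, had levels of 9.31, 9.21 and 9.39 on the Day2 arrays, against 4.35, 4.25 and 4.32 on the Day1 arrays and was at least 24.5-fold higher (limma adjusted p = 4.87e-13). Rbfox1, which directs muscle and nerve exons, stood at 6.98, 7.69 and 7.59 on the Day2 arrays, against 4.35, 4.36 and 4.29 on the Day1 arrays and was at least 6.65-fold higher (limma adjusted p = 3.65e-09). Qk, which encodes an RNA-binding protein that promotes muscle exons, rose by 2.18 ± 0.19. Ptbp1, which represses such exons in dividing cells, had levels of 8.95, 9.30 and 9.40 on the Day2 arrays, against 11.04, 11.04 and 11.02 on the Day1 arrays, a change of -1.82 ± 0.11 (limma adjusted p = 5.44e-09). Hnrnpa2b1 (-1.75 ± 0.12) and Tra2b (-1.73 ± 0.11), general splicing factors, fell with it. Mbnl1, a muscle splicing factor, also fell (-0.68 ± 0.09).

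The second large group to rise was that of interferon-induced genes. Of 50 tested effectors, 45 rose, 40 of them at least 2-fold, and 1 fell, beside 30.3%, 12.3% and 31.1% of all genes. The median was 2.09 (2.08 with one-sided values at their bounds). Isg15, a ubiquitin-like protein coupled to others in virus defence, had levels of 11.85, 12.24 and 12.28 on the Day2 arrays, against 5.51, 5.44 and 5.16 on the Day1 arrays and changed by 6.75 ± 0.13 (limma adjusted p = 4.38e-14). Oasl2, a relative of the enzymes that sense double-stranded RNA, had levels of 11.22, 11.48 and 11.52 on the Day2 arrays, against 4.46, 4.32 and 4.29 on the Day1 arrays and was at least 105-fold higher (limma adjusted p = 1.13e-14). Rsad2, or viperin, which makes a chain-terminating nucleotide, had levels of 10.71, 11.20 and 11.11 on the Day2 arrays, against 5.28, 5.29 and 5.25 on the Day1 arrays, a change of 5.73 ± 0.13 (limma adjusted p = 1.74e-13). On every Day2 array these genes stood above all Day1 arrays. Ifit3, which binds viral RNA complexes, was the highest of its family (8.28 ± 0.08). Irgm1, a GTPase of cell defence, was the one that fell (-0.59 ± 0.13), and its probes disagreed.

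Genes that sense RNA and pass on the interferon signal rose less evenly, 17 of 31 higher and 2 lower. Irf7, the amplifying interferon factor, had levels of 9.16, 9.03 and 8.92 on the Day2 arrays, against 4.29, 4.38 and 4.27 on the Day1 arrays and was at least 20.3-fold higher (limma adjusted p = 1.34e-12). Stat2, which interferon receptors activate, had levels of 8.10, 8.35 and 8.57 on the Day2 arrays, against 5.19, 5.29 and 4.75 on the Day1 arrays, a change of 3.26 ± 0.17 (limma adjusted p = 1.08e-09). Its partner Irf9 also rose (2.78 ± 0.15), as did the RNA helicase Dhx58 (3.43 ± 0.14). Ifnb1, the interferon gene itself, had levels of 5.85, 6.02 and 6.13 on the Day2 arrays, against 4.43, 4.23 and 4.31 on the Day1 arrays and was at least 2.48-fold higher (limma adjusted p = 2.46e-07), close to background even on Day2. Cgas, the sensor of DNA, fell (-1.97 ± 0.10). The adaptor Mavs (-0.28 ± 0.14, adjusted p = 0.0957), the kinase Tbk1 (0.0 ± 0.10, adjusted p = 0.995) and Irf3 (0.20 ± 0.08, adjusted p = 0.058), the factor they switch on, did not pass.

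Antigen presentation rose with it, 18 of 20 genes higher and 0 lower. H2-T23, a non-classical class I gene, had levels of 11.56, 11.63 and 11.66 on the Day2 arrays, against 8.82, 8.81 and 9.08 on the Day1 arrays, a change of 2.71 ± 0.09 (limma adjusted p = 1.92e-11). Psmb8, a subunit of the immunoproteasome, rose by 2.67 ± 0.12. Of 27 constitutive proteasome subunits, 3 rose and 11 fell, beside 30.3% and 31.1% of all genes. Among chemokines and cytokines, 17 of 21 were higher. Cxcl10, which attracts T cells, had levels of 8.93, 8.64 and 8.33 on the Day2 arrays, against 4.73, 5.02 and 5.24 on the Day1 arrays and changed by 3.64 ± 0.17 (limma adjusted p = 4.69e-10). Ccl5 (3.44 ± 0.22) attracts T cells too, and Cxcl9 (at least 10.3-fold higher) binds the same receptor as Cxcl10. The growth factor of macrophages, Csf1, fell (-0.94 ± 0.12). Of complement and Ly6 genes, 8 of 11 rose, led by Ly6c1, a surface protein (4.56 ± 0.16), and Serping1, the inhibitor of complement C1 (4.24 ± 0.14). Macrophage markers did not move with these groups: of 8 listed, 3 were tested, 0 rose and 1, Cd14, fell (-1.0 ± 0.16). Their summed linear level was 102 to 125 on Day2 arrays and 158 to 190.5 on Day1 arrays, and Ptprc, Cd68, Adgre1, Lyz2 and Itgam, which define these cells, had no kept probe.

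The interferon element GAAANNGAA, a short form of the site that Irf factors bind, was sought on both strands. Ifit3, at chr19:34583279-34583578 on the plus strand, and Isg15, at chr4:156200769-156201068 on the minus strand, are shown with every match in capitals.
Ifit3: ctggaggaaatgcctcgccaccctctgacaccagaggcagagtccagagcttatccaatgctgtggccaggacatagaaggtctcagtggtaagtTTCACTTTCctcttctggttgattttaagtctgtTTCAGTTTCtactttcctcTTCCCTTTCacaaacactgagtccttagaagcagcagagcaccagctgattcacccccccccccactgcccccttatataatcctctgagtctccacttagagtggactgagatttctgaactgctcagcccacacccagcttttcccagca
Isg15: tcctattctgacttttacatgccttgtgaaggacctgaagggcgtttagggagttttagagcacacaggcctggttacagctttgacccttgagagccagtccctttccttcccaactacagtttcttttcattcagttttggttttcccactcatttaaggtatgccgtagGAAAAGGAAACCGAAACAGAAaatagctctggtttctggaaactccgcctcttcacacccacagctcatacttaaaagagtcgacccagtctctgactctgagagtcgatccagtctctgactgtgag
Both windows hold 3 matches, and those of Isg15 overlap in one run. The element was in 41.3% of promoters of the interferon list (19 of 46 promoters, from 37 matched genes of 50), against 6.88% over all genes tested and 8.56% of all promoters. Promoters of genes at least 4-fold higher held it in 14.3% of cases.

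The matrix around the cells changed as well. Of 37 proteoglycan and matricellular genes, 23 rose and 6 fell, with 17 rises of at least 2-fold, beside 30.3%, 31.1% and 12.3% of all genes. Prelp, a leucine-rich proteoglycan that binds collagen, had levels of 10.94, 10.99 and 11.06 on the Day2 arrays, against 5.93, 5.05 and 5.38 on the Day1 arrays and changed by 5.54 ± 0.17 (limma adjusted p = 6.33e-12). Ogn, or osteoglycin, had levels of 12.38, 12.16 and 12.52 on the Day2 arrays, against 7.46, 7.20 and 7.16 on the Day1 arrays, a change of 5.08 ± 0.11 (limma adjusted p = 1.64e-13). Tnc, a matrix protein that loosens adhesion, went the other way, with levels of 5.81, 5.59 and 5.43 on the Day2 arrays, against 7.84, 7.58 and 7.80 on the Day1 arrays and a change of -2.13 ± 0.14 (limma adjusted p = 1.43e-08). All 3 were separated on every array. Of 8 fibroblast markers listed, 4 were tested, of which Dcn and Pdgfra rose and Cd34 and Tcf7l2 did not pass, with a summed linear level of 1999 to 2333 on Day2 arrays and 377 to 409.9 on Day1 arrays, and Ly6a, Lum, Pi16 and Dpt had no kept probe. Dcn is itself a proteoglycan of the matrix list. Without it the markers summed to 594 to 662 on Day2 arrays and 354 to 379 on Day1 arrays, and 22 of 36 matrix genes rose. The part of such cells in the matrix result was not tested. Collagens rose in 20 of 35 cases, 12 by at least 2-fold, led by the type VI chains Col6a1 (3.51 ± 0.12) and Col6a2 (3.05 ± 0.17) and by Col1a1 (2.46 ± 0.19), while the anchoring collagen Col7a1 fell (-1.25 ± 0.13). Of 25 metalloproteinase genes, 14 rose and 4 fell, beside 30.3% and 31.1% of all genes. Mmp2, which digests basement membrane, rose (1.90 ± 0.08), and Plaur, the urokinase receptor (-1.78 ± 0.13), and Timp3, an inhibitor (-1.39 ± 0.09), fell. Among integrins and their partners, Itgb1bp2, or melusin, a muscle partner of integrin (at least 34.5-fold higher), and Itga11, a collagen receptor (3.72 ± 0.14), rose, and Itgb7, known from lymphocytes, fell (at least 5.56-fold lower).

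Signalling pathways were mixed, and their counts stand beside 30.3% of all genes higher and 31.1% lower. Of 17 Notch genes, 12 rose and 3 fell. Hes6, a Hes family member that favours differentiation, had levels of 10.77, 10.33 and 10.41 on the Day2 arrays, against 7.84, 7.73 and 8.11 on the Day1 arrays. Its change was 2.61 ± 0.13 (limma adjusted p = 6.78e-10). In the TGF-beta and BMP list, 11 of 29 rose, near the share of all genes, and 5 fell. Chrd, which traps BMPs outside the cell, rose (2.94 ± 0.13), and Grem1, another BMP antagonist, had levels of 5.77, 5.82 and 5.85 on the Day2 arrays, against 8.26, 8.67 and 8.69 on the Day1 arrays and changed by -2.73 ± 0.13 (limma adjusted p = 6.97e-10), so the 2 antagonists went opposite ways. The signal carrier Smad3 rose (2.22 ± 0.10). Of 27 Wnt genes, 15 rose and 4 fell, with Porcn, which makes Wnt proteins fit for release (3.28 ± 0.12), and Dkk3, a secreted Dickkopf protein (2.26 ± 0.16), highest. In the list of fibroblast growth factors and receptor signalling, the platelet-derived growth factor receptors Pdgfrb (2.41 ± 0.18) and Pdgfra (2.10 ± 0.17) rose, and Etv4, a factor induced by that signalling, fell (-2.02 ± 0.10).

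Of 45 genes of the non-muscle cytoskeleton, 21 fell and 13 rose, beside 31.1% and 30.3% of all genes, so the rises were near that share. Tagln2, a calponin relative (-2.07 ± 0.09), Cfl1, the general cofilin (-1.55 ± 0.15), and Flna, the general filamin (-1.29 ± 0.14), fell most. Flnc, the muscle filamin, rose (2.75 ± 0.09), so the 2 filamins moved apart. Intermediate filaments showed the same contrast. Des, the desmin of muscle, had levels of 13.61, 13.50 and 13.60 on the Day2 arrays, against 10.69, 10.81 and 10.82 on the Day1 arrays, a change of 2.80 ± 0.08 (limma adjusted p = 3.69e-12). Vim, the vimentin of undifferentiated cells, had levels of 11.78, 11.74 and 11.64 on the Day2 arrays, against 13.21, 13.42 and 13.48 on the Day1 arrays and changed by -1.65 ± 0.09 (limma adjusted p = 2.54e-09). Lmnb1, a lamin of dividing cells, also fell (-2.67 ± 0.10). The keratin Krt14, which is unusual in muscle, fell most (-5.43 ± 0.17).

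Detoxification genes fell more often than they rose, 26 of 41 lower and 13 higher, beside 31.1% and 30.3% of all genes. Nqo1, a quinone reductase and standard NRF2 target, had levels of 6.09, 6.42 and 6.17 on the Day2 arrays, against 9.61, 9.86 and 9.86 on the Day1 arrays, a change of -3.55 ± 0.12 (limma adjusted p = 1.6e-11). Gsta1 (-4.11 ± 0.13) and Gsta2 (-4.56 ± 0.11), glutathione transferases of the alpha class, fell further, and are similar in sequence, so their probes may read both. Gsta3, of the same class, had levels of 8.48, 8.23 and 8.11 on the Day2 arrays, against 5.22, 5.29 and 5.10 on the Day1 arrays and changed by 3.07 ± 0.14 (limma adjusted p = 2.3e-10). Gpx3, a secreted peroxidase, rose too (2.62 ± 0.15). The antioxidant element TGACNNNGC was in 22.2% of promoters of this list, 10 of 45, against 14% over all genes tested, and the windows of Nqo1 and Gsta2 held none. Lysosome and autophagy genes rose in 24 of 35 cases and fell in 5, led by Map1lc3a, a protein of the autophagosome membrane, with levels of 11.07, 10.42 and 10.31 on the Day2 arrays, against 7.81, 7.52 and 7.52 on the Day1 arrays and a change of 2.98 ± 0.17 (limma adjusted p = 2.47e-09). Cholesterol and fatty acid genes, 11 of 32 higher and 12 lower, were near the 30.3% and 31.1% of all genes, with Acss2, which makes acetyl-CoA (2.83 ± 0.13), highest and Mvk, mevalonate kinase (-1.90 ± 0.14), lowest. Among p53 targets and death genes, 13 of 30 rose and 6 fell, beside the same shares of all genes. The death receptor Fas (1.91 ± 0.15) was higher and the mitotic p53 partner Gtse1 (-3.12 ± 0.14) was lowest.

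**Figure D4:**
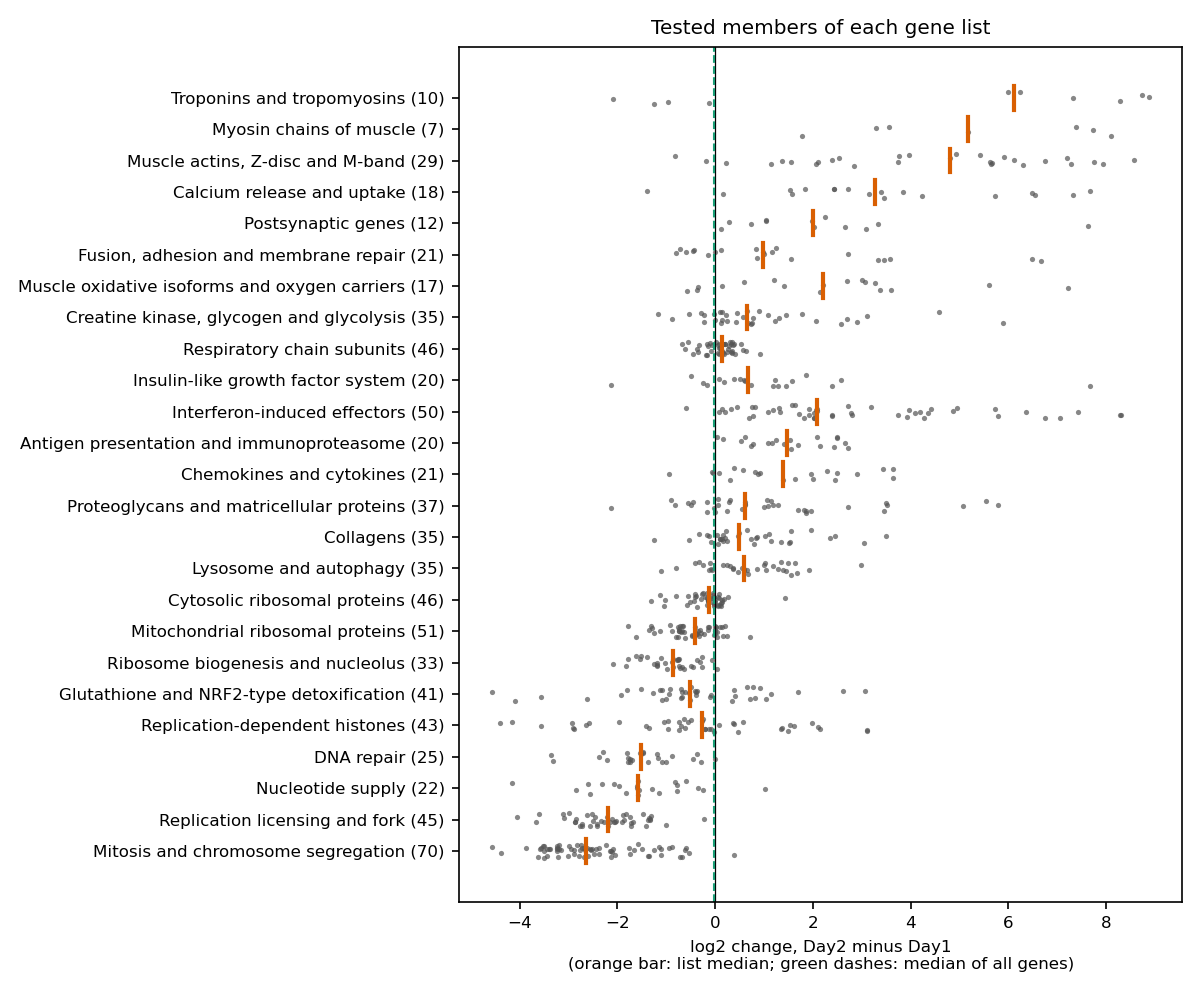
Log2 change (Day2 minus Day1) of every tested member of 25 gene lists, one point a gene, with the list median as an orange bar, the number tested in brackets and the median of all genes as a dashed green line. Muscle lists lie to the right, replication and mitosis to the left, and respiratory chain subunits and cytosolic ribosomal proteins close to 0.

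Some of the largest changes lay in no list. Plac8, a small cysteine-rich protein, had levels of 12.23, 12.10 and 12.16 on the Day2 arrays, against 5.0, 4.92 and 5.50 on the Day1 arrays and changed by 7.02 ± 0.14 (limma adjusted p = 4.55e-14). Hsd11b1, which reactivates glucocorticoids, had levels of 11.49, 11.28 and 11.34 on the Day2 arrays, against 4.99, 4.86 and 5.07 on the Day1 arrays, a change of 6.40 ± 0.11 (limma adjusted p = 1.13e-14). Tmem182, a muscle membrane protein, stood at 10.89, 10.49 and 10.53 on the Day2 arrays, against 4.25, 4.25 and 4.19 on the Day1 arrays and was at least 61.7-fold higher (limma adjusted p = 5.77e-14). Day1 was low throughout in these genes and no array of one time entered the range of the other. Fn3k, which removes sugar from proteins (at least 39.2-fold higher), Slc2a6, a glucose transporter (5.22 ± 0.21), and Acsl6, an acyl-CoA synthetase (5.18 ± 0.15), rose with them, and so did Irgm2, an interferon-induced GTPase (at least 48.7-fold higher). On the lower side, Prl2c3 (-5.10 ± 0.13), Prl2c4 (-5.09 ± 0.12) and Prl2c2 (-4.97 ± 0.11), the proliferins secreted by growing cells, fell most, and their sequences are alike enough that probes may not tell them apart. They were followed by H2ac21 (-4.32 ± 0.21) and H2ac12 (-4.21 ± 0.14), H2A genes outside the histone list, and by Recql4, a helicase of replication (-3.84 ± 0.26). Pbk, a mitotic kinase (-3.41 ± 0.14), fell as well.

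Targets of the muscle microRNAs are of interest since miR-206 appears in differentiating myoblasts. Its mature sequence (RefSeq, GRCm38.p6, chr1:20679055-20679076, plus strand) is given with the seed, bases 2 to 8, in capitals.
mmu-miR-206-3p: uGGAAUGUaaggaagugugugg
Of 34 tested genes that other studies named as targets of miR-206 or of miR-1, which share this seed, 21 fell and 7 rose, 7 and 3 of them at least 2-fold, with a median of -0.66. Over all genes the shares were 31.1% and 30.3%. The level of the microRNA itself was not analysed here. Hspd1, a mitochondrial chaperone, had levels of 10.71, 11.14 and 11.17 on the Day2 arrays, against 12.30, 12.54 and 12.57 on the Day1 arrays and changed by -1.47 ± 0.12 (limma adjusted p = 1.35e-07). The largest rise among these targets was that of Igf1 (2.40) and the largest fall that of Tagln2 (-2.07), both described above. Gja1, the gap junction protein connexin 43, fell slightly (-0.39 ± 0.08). Hdac4, a repressor of MEF2, rose by its chosen probe (0.78 ± 0.12), and its other probe did not pass (-0.38 ± 0.16).

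Cells given the miR-206 inhibitor were also cultured for 48 h. In a fit of all 12 arrays, 5466 genes (51.3%) differed between Day2 and these cells. Both comparisons share the Day2 arrays, and the genes given were chosen for their change against Day1 or as regulators, so a like direction is no separate evidence. Tnni2 was 7.88 ± 0.25 against the inhibitor cells and 8.88 ± 0.10 against Day1. Cdc20 was -4.20 ± 0.20 against the inhibitor cells and -4.56 ± 0.15 against Day1. Ifit3 was 7.10 ± 0.24 against the inhibitor cells and 8.28 ± 0.08 against Day1. Myc was -0.10 ± 0.16 against the inhibitor cells, which did not pass (adjusted p = 0.643), and -1.05 ± 0.16 against Day1.

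Genes often used as references in quantitative PCR were among those called. Of 18 tested, 5 rose and 9 fell, beside 30.3% and 31.1% of all genes. Gapdh, a glycolytic enzyme, had levels of 14.27, 14.05 and 13.98 on the Day2 arrays, against 13.36, 13.31 and 13.31 on the Day1 arrays, a change of 0.78 ± 0.09 (limma adjusted p = 6.24e-06). Actb, the cytoplasmic beta-actin, had levels of 13.31, 13.28 and 13.02 on the Day2 arrays, against 13.43, 13.97 and 13.90 on the Day1 arrays and changed by -0.56 ± 0.13 (limma adjusted p = 0.00217). Its other probes disagreed: one changed by -1.76 ± 0.18, and those at 0.91 ± 1.01, 1.91 ± 1.01 and 2.15 ± 1.02 did not pass. The probe at 0.91 stood at 7.68 on Day1 replicate 1, against 12.92 and 12.96 on the other Day1 arrays. B2m, the light chain of class I molecules, rose (1.25 ± 0.09), and Rpl13a fell (-1.32 ± 0.08). These changes are relative to arrays forced to one distribution, so a change in total RNA per cell would not show.

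Where a gene had several probes, the others gave a second reading. The brightest probe is that with the highest mean over all 12 arrays, so another can be brighter on the 6 arrays compared. Over 2879 genes that passed and had another kept probe, 83% of 4318 other probes had the same sign, and 194 passed in the opposite direction. Among genes changed at least 2-fold the share was 90.9%. Of 4155 genes with several kept probes, 12 (0.289%) had probes that passed at least 2-fold in both directions. Tpm3, a tropomyosin made in slow-muscle and in general forms, had the widest gap. Its brightest probe averaged 8.96 on Day2 and 11.06 on Day1, a change of -2.10 ± 0.09, whereas its other 5 probes rose by 2.41 to 4.87. The last of these averaged 10.29 on Day2 and 5.42 on Day1. Tpm2, the beta-tropomyosin of muscle, had 3 probes, with changes of -0.12 ± 0.08 for the brightest, 1.16 ± 0.11 and 6.5 ± 0.14. Tpm1 fell by both of its probes, -1.25 ± 0.09 and -1.36 ± 0.09, and Tpm4, a general tropomyosin, by all 3.

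Atp2a2 rose by 4.23 ± 0.12 and 4.14 ± 0.09 with 2 probes and was -0.68 ± 0.12 with the other one. Cacna2d1 was -1.40 ± 0.13 by its chosen probe, which averaged 6.63 on Day2 and 8.03 on Day1. Another probe, brighter on Day2, averaged 8.94 on Day2 and 7.17 on Day1, a change of 1.77 ± 0.15. Pdlim5 was -0.82 ± 0.15 by its chosen probe, which averaged 5.79 on Day2 and 6.61 on Day1. Another probe of Pdlim5, brighter on Day2, averaged 8.45 on Day2 and 5.38 on Day1, a change of 3.07 ± 0.22. Irgm1 was -0.59 ± 0.13 by its brightest probe and 2.98 ± 0.14 by another. Of the lone falls named above in the Z-disc, calcium and interferon lists, each was thus countered by another probe of its gene. The positions of the probes within their transcripts were not used here, so which transcript forms they read was not tested.

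**Figure D5:**
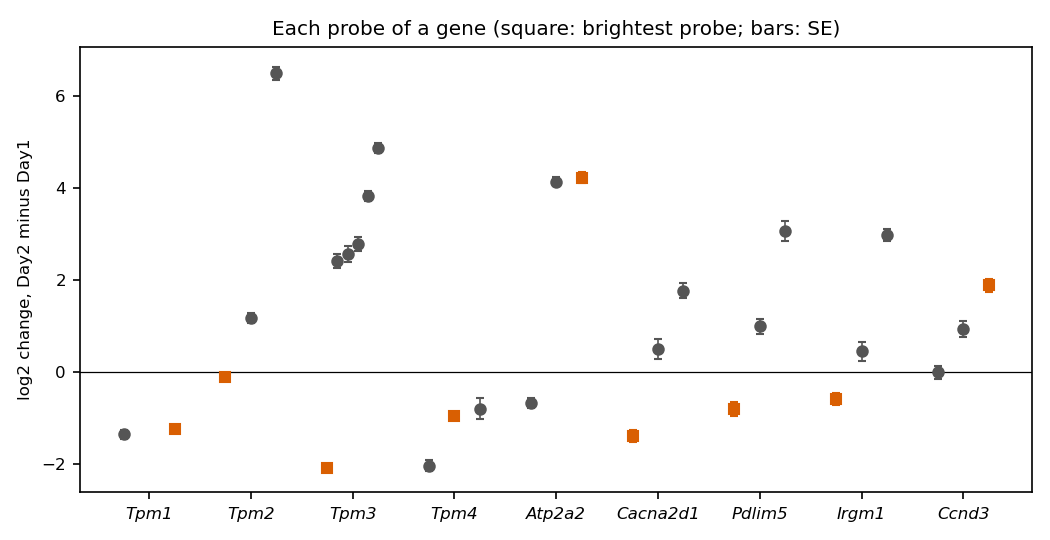
Log2 change (Day2 minus Day1, bars show the SE) of each kept probe of 9 genes, with the brightest probe, which stood for the gene, as an orange square. Tpm1 and Tpm4 fall with all probes, while Tpm3, Cacna2d1, Pdlim5 and Irgm1 have a brightest probe below 0 and another above it.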

How the data were processed

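RNA of 12 samples was measured on Illumina bead arrays. The authors deposited a table of raw probe intensity per array, with no background subtraction recorded per the file headers, and beside each intensity a detection score, which rises with brightness and was used as 1 minus the detection p. The authors also deposited processed log2 values, for which lumi is named per the submitters' processing notes with no version given. In rank order, Day2 replicates 2 and 3 are exchanged between the 2 tables (Spearman correlation 1 across the labels, 0.882 within them), so only the raw table was used outside the alternatives.

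Intensities of all 12 arrays were background-corrected with limma 3.58.1 (R 4.3.3) by normexp with an offset of 16, quantile-normalized and taken to log2. Probes with a detection p under 0.05 on at least 3 arrays were kept, 19809 of 45281, of which 16794 named 1 gene by the platform annotation. The brightest probe, by its mean level over all 12 arrays, stood for each of 10653 genes. The 6 Day2 and Day1 arrays alone were fitted (lmFit and eBayes with an intensity trend, 4 residual and 9.18 prior degrees of freedom), because an array of the mimic group stands apart from its group. P-values were two-sided and adjusted by Benjamini-Hochberg over all genes. A probe below background on every array of a group gives a bound: the bright mean against the higher, array by array, of the dim value and the lowest detected level, under this background correction. The number of arrays limits the precision. Alternatives covered the normalization, filters, probes, weights, the replicate block and leaving out each array. No pairing by replicate number was used. Same-numbered arrays deviated from their group means with correlations of -0.14, 0.11 and -0.11, and differently numbered arrays with -0.156 to 0.24. With 3 arrays a group, these values cannot settle whether the numbers pair the samples. On simulated data with 10653 genes for this comparison, only 100 genes were changed by 1 on the log2 scale and 100 by 2. Of these, 87 and 100 were called, with 10 false calls. In the data themselves 61.4% of the genes passed, so these rates need not hold there.

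The 50 gene lists, 11 marker lists and the members were chosen with earlier results of these data known. Named genes are the 3 largest rises and falls of each list, the 15 largest over all genes, the 12 largest in no list and a fixed list of regulators. Actn3, Cd34, Cdk4, Cox6a2, Cox7a1, Irf3, Isg15, Kif23, Mavs, Myh1, Myh8, Mylk2, Myom3, Nuf2, Oasl2, Orc2, Pdlim3, Rsad2, Ryr1, Tbk1, Tcf7l2, Tnnc1, Tnnt1, Tpm2, Ttn and Unc45b were chosen after their values were seen. Promoter and microRNA sequences are from RefSeq (GRCm38.p6), and 8600 of 10653 genes matched a promoter.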

Additional observations from a re-analysis of the deposited data

How the results depend on the processing

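Of the genes named in the text, 208 of 209 kept their side of the threshold and direction in a fit of 4 group means over all 12 arrays, where Myod1 was lost (adjusted p = 0.102), and all 209 did so with arrays scaled to a common median, with no detection filter, with no intensity trend and with all kept probes. The 303 genes named by rule, not all of which are given in the text, were less stable. Of these, 285 stayed past the test in the same direction with arrays scaled to a common median and 296 with no detection filter. The count was 296 with 4 group means, 301 with no intensity trend and 302 with all kept probes. Kif23, Irf3 and Mavs, which did not pass, passed under some settings, Kif23 with an adjusted p of 0.0498 in the authors' deposited log2 values. All 4 group means gave 6088 genes past the test, and scaling to a common median gave 5611. The authors' log2 values gave 730 genes at least 2-fold higher and 537 lower, and shrank changes to a median of 0.673 of those reported. All kept probes, 19809 in place of 10653 genes, gave 11275 calls, 4991 higher and 6284 lower, with 2051 and 1977 at least 2-fold. With no detection filter 8 gene lists had a median at least 2-fold higher, against 13, because more genes near background entered the lists. Leaving out each array in turn gave 5947 to 6568 calls, 2928 to 3278 higher and 2997 to 3290 lower, of which 1272 to 1359 and 998 to 1087 were at least 2-fold; 13 to 14 lists with a median at least 2-fold higher and 4 to 4 lower; and 297 to 303 of 303 genes named by rule past the test. With the replicate block 6347 genes passed, and no named gene changed its call. Nothing in the labels says that the replicate numbers pair the samples. Promoters of genes at least 8-fold higher held CANNTG in 81.4%, and those at least 8-fold lower held the interferon element in 11.5%, CAGCTG in 8.2%, the CCAAT box in 68.9%, CHR in 41.0% and E2F forms in 21.3%. The cause of these shifts was not tested. A slide block was not run, since no slide is given in the sources used here. With 3 arrays a group, dim genes have bounds only.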

Other observations

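Besides Tpm3, 11 genes had kept probes that passed at least 2-fold in both directions. Pde4dip, a scaffold of the Golgi and centrosome also known as myomegalin, had a probe that averaged 10.70 on Day2 and 6.18 on Day1. Its chosen probe, brightest over all 12 arrays but not on these 6, averaged 7.14 on Day2 and 8.17 on Day1. Cdkn2c, an inhibitor of CDK4 and CDK6, had a brightest probe that did not pass, at 8.27 on Day2 and 8.45 on Day1, beside one that averaged 6.39 on Day2 and 4.78 on Day1 and one that averaged 5.59 on Day2 and 7.78 on Day1. H2ac20, an H2A gene, had a probe at 6.84 on Day2 and 5.20 on Day1 and its brightest at 11.88 on Day2 and 14.78 on Day1. The others were Cacna2d1, Vmp1, Nme7, Rangap1, Cep83, Lrrfip2, Trim33 and Naa15, with gaps between their probes of 2.06 to 3.17 on the log2 scale. These genes were chosen after their values were seen, and which transcript forms the probes read was not tested.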
